A study of Mus musculus with 5 samples.

Results

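The aminoacyl-tRNA synthetases are the enzymes that join each amino acid to its transfer RNA. In E10.5 mouse embryonic heart tissue the family was collected by taking every probe set annotated with one of 36 listed symbols, or with the same symbol followed by 1. Of these genes 35 were found, each with 1 probe set, among 23279 genes in all: 19 cytosolic and 16 mitochondrial, a name ending in 2 marking the mitochondrial ones. Dars is the listed gene without an annotated probe set. The series title asks how LRRFIP2 modulates the hypoxia response of the forming heart. Whole-transcriptome Affymetrix arrays were read for 2 samples of genotype KO and 3 of genotype Control, all untreated embryonic hearts of that age. Neither the allele nor a Cre driver is given in the labels, nor is the number of hearts behind each sample, so p-values measure only the spread between these 5 samples. Levels are log2 RMA values as deposited, and every difference is KO minus control on the log2 scale.

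Most cells run 2 sets of these enzymes, both encoded in the nucleus. The cytosolic set charges the transfer RNAs that serve ribosomes in the cytoplasm, and the other set is imported into mitochondria, where it serves translation of the respiratory chain subunits encoded by mitochondrial DNA. Gars and Kars each supply both compartments from 1 gene, Eprs joins the glutamyl and prolyl enzymes in 1 protein, and Farsa with Farsb form the cytosolic phenylalanyl enzyme. When amino acids run short or other stresses activate the eIF2 kinases, the transcription factor ATF4 is known from mammalian cells to induce many cytosolic synthetase genes along with amino acid transporters and asparagine synthetase.

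Of the genes known as ATF4 targets, several carry an element that ATF4 binds together with C/EBP partners. Its core, TGATGNAA, was searched on both strands of 300-base promoter windows from RefSeq (build GRCm38.p6), which run from 250 bases before to 50 bases after an annotated start. It was the only motif searched, and it reads TTNCATCA where it lies on the opposite strand. Windows were found for 26 of the 35 synthetases, 12 cytosolic and 14 mitochondrial. Among cytosolic genes, Cars, Lars and Nars (higher in KO) and Hars, Rars, Vars and Wars (lower in KO) had none. The core was present in 5 of the 12 cytosolic genes (41.7%) and 0 of the 14 mitochondrial genes, beside 4.51% of all 27025 genes with a window and 2.73% of the 10835 such genes tested on the arrays. The 5 windows with a match are shown. Their genes all had a higher mean in KO hearts, but so did 10 of the 12 cytosolic genes with a window. Sars is shown beside them because it had the largest difference of the family and its window holds no match. Capitals mark the matches, and each sequence is written 5′ to 3′ along the gene.
Iars (chr13:49681880-49682179, plus strand): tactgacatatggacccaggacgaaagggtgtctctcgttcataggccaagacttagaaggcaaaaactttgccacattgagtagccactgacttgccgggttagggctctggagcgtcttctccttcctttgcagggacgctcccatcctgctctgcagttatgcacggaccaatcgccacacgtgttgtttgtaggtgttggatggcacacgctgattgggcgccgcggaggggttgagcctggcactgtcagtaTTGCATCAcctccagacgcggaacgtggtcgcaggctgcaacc
Aars (chr8:111033592-111033891, plus strand): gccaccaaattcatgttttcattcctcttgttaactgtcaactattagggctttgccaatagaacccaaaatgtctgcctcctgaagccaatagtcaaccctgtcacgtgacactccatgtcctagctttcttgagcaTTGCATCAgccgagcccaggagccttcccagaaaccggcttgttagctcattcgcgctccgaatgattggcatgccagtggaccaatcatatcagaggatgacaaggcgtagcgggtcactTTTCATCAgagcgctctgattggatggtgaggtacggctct
Yars (chr4:129189653-129189952, plus strand): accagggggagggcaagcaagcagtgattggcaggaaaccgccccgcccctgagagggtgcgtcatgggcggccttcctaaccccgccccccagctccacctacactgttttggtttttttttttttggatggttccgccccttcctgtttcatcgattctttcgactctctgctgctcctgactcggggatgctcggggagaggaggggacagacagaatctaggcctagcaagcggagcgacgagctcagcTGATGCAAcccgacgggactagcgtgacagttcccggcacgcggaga
Tars (chr15:11399609-11399908, minus strand): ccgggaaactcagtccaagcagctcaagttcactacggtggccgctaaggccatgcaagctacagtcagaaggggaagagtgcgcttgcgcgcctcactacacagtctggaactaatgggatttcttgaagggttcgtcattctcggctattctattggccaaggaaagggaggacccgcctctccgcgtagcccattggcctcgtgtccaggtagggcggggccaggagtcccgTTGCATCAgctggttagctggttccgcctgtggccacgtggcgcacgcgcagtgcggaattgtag
Gars (chr6:55037751-55038050, plus strand): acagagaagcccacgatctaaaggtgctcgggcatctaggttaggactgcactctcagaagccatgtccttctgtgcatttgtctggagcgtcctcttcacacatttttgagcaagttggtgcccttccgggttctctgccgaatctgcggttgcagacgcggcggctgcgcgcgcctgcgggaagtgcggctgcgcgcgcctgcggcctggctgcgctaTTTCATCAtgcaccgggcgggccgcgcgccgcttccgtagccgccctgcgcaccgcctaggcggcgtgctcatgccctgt
Sars (chr3:108445210-108445509, minus strand): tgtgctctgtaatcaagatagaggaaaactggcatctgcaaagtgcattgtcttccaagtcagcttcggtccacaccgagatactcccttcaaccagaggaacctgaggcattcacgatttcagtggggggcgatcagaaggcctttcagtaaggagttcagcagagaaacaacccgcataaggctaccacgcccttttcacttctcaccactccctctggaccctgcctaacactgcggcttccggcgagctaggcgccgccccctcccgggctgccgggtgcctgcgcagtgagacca
The match in Tars lies 15 bases and that in Gars 30 bases before the annotated start. In Iars it begins 7 bases and in Yars 3 bases after that start, while Aars has a match 112 bases before and another 9 bases after it. A match is a run of letters in the window and is no measurement of binding.

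Cytosolic synthetase genes were more often higher than lower in KO hearts, and mitochondrial ones more often lower than higher. In the cytosolic set 13 of 19 had a higher mean in KO, beside 43.7% of all 13967 genes tested, with a median difference of 0.20. In the mitochondrial set 13 of 16 had a lower mean, beside 54.4% of all genes, with a median of -0.07. The median over all genes tested was -0.02. All 35 synthetases lay above the limit under which genes were left out as dim (log2 level 4.44), with means over the 5 arrays from 4.91 to 9.78. In the fit across all genes (limma, with Benjamini-Hochberg adjustment) 0 synthetases and 0 of the 13967 genes passed an adjusted p under 0.05, and adjusted p over the synthetases ran between 0.453 and 0.947. Without KO replicate 2, in a fit where the lone KO array is taken to vary like the controls, 983 genes passed, 2 of them synthetases (Cars and Vars). Without KO replicate 1, 9 genes and 0 synthetases passed.

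An unadjusted p under 0.05 was reached by 7 of the 35 synthetases, beside 8.78% of all genes tested. In the cytosolic set 2 of 19 were higher at that level and 2 lower, beside 3.29% of all genes higher and 5.49% lower. In the mitochondrial set 0 of 16 were higher and 3 lower, read against the same background. KO and control arrays did not overlap in 14 of the 35 synthetases, beside 21.3% of all genes tested. Both KO arrays lay above all controls in 5 cytosolic genes (26.3%) and 0 mitochondrial genes, beside 8.18% of all genes tested. Both KO arrays lay below all controls in 2 cytosolic and 7 mitochondrial genes (43.8% of the mitochondrial set), beside 13.1% of all genes tested. The mitochondrial set thus held its separated genes on the lower side only, though at a share of 8.18% a count of 0 of 16 higher is near the background. Without KO replicate 2, 9 cytosolic and 5 mitochondrial genes were under the unadjusted threshold, beside 27.3% of all genes tested in that fit. Without control replicate 1 or control replicate 2, 0 cytosolic and 2 mitochondrial genes were, beside 5.53% and 5.66% of all genes, so the count over all genes moved with the array left out as well.

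The KO arrays carried the difference unequally. The median shift of the cytosolic set from its control mean was 0.344 in KO replicate 1 and 0.0786 in KO replicate 2, and -0.0453, -0.0563 and 0.116 in control replicates 1, 2 and 3. Control replicate 3 thus lay above KO replicate 2. For the mitochondrial set the shift was -0.0627 and -0.112 in the KO arrays, against -0.0025, -0.00195 and 0.0115 in the controls, so that set was lower in both KO arrays by a small amount. Cytosolic minus mitochondrial shift was 0.407 and 0.191 in the KO arrays, against -0.0428, -0.0543 and 0.105 in the controls. These gaps did not overlap between the groups, and they were given no test because the members were listed with earlier results known. Without KO replicate 1 the cytosolic median was 0.0786, and without KO replicate 2 it was 0.344.

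**Figure D1:**
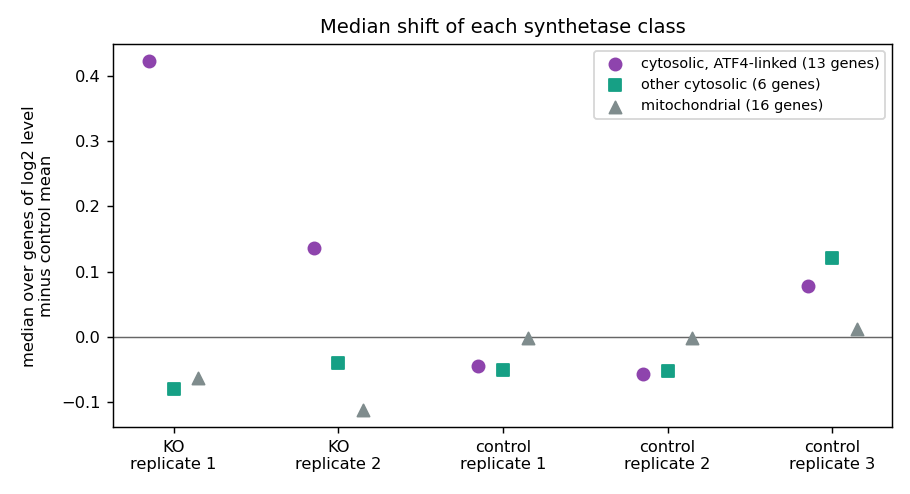
Median over the genes of a class of the log2 level minus the mean of the 3 control arrays, for each of the 2 KO and 3 control arrays; there are no error bars because each point is 1 array. The 13 cytosolic genes linked to ATF4 lie at 0.422 and 0.137 in the KO arrays and reach 0.0786 in control replicate 3, and the 16 mitochondrial genes lie below 0 in both KO arrays.

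The arrays also differed in tissue content and in the targeted gene. Lrrfip2 had levels of 6.36 and 6.22 in KO, against 7.33, 8.07 and 8.08 in control hearts (difference -1.54 ± 0.28, SE), so it runs with the labels. The labels do not say whether its probe set lies in the deleted part. All 7 cardiomyocyte markers were tested, and their median shift was -0.0236 and -0.181 in the KO arrays, against -0.00728 to 0.00773 in controls, with 2 of the 7 higher in KO. The median of the 7 tested endoderm markers of 9 was 9.37 in KO replicate 2, against 4.92 in KO replicate 1 and 4.86 to 4.99 in controls, with Afp at 11.42 in the first of these and below the dim limit elsewhere. The median shift of the 5 endothelial markers was 0.704 and 0.16 in the KO arrays, against -0.149 to 0.124 in controls. Of these, 4 were higher in KO and 1 lower. The lower one was Tek, at 8.39 and 8.05 in KO against 8.60, 8.34 and 8.34 in controls. Erythroid markers (6 tested) had a median shift of 0.509 in control replicate 3, against -0.463 to -0.0381 in the other controls and -0.37 and -0.176 in KO. The 5 tested macrophage markers had median shifts of 0.0518 and -0.0696 in KO, against -0.0978 to 0.145 in controls, and Tyrobp alone reached 7.65 in KO replicate 1. Without KO replicate 2, the array with endoderm transcripts, 12 of 19 cytosolic genes were higher, beside 43.4% of all genes tested. Of the mitochondrial genes 11 of 16 were lower, beside 53.1%. The part of the endoderm, endothelial and erythroid levels was not tested. In bulk tissue, fewer cells of a type and less RNA per cell cannot be told apart.

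Among cytosolic genes with higher levels, Cars and Iars had the smallest p-values. Cars, which charges transfer RNA with cysteine, had levels of 7.84 and 7.15 in KO and 6.80, 6.77 and 6.86 in control hearts. Both KO arrays lay above all controls, KO replicate 1 by far the more. The difference was 0.69 ± 0.22 (SE), 1.61-fold, with a 95% interval of 0.07 to 1.302 (unadjusted p = 0.0365, limma adjusted p = 0.541). Iars, the isoleucyl enzyme, was at 9.54 and 9.15 in KO and at 8.79, 8.65 and 9.03 in control hearts. Here too the groups stood apart, with control replicate 3 close under KO replicate 2. Its difference was 0.52 ± 0.18, with an interval of 0.03 to 1.02 (unadjusted p = 0.0426, limma adjusted p = 0.549). Without KO replicate 2 Cars passed the adjusted threshold at 0.0296 with a difference of 1.03, in a fit that takes the lone KO array to vary like the controls; over all alternatives its adjusted p ran from 0.0296 to 0.757. Cars was not under an unadjusted p of 0.05 without any 1 of the controls, where its difference was 0.68, 0.66 and 0.71. Iars was not under it without control replicate 1 (0.51), control replicate 2 (0.44) or KO replicate 1 (0.33).

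The largest difference belonged to Sars, and it did not separate the groups. Sars, the seryl enzyme, which also charges the transfer RNA later converted for selenocysteine, had levels of 10.06 and 9.15 in KO and 8.72, 8.68 and 9.30 in control hearts. Control replicate 3 exceeded KO replicate 2. Its difference of 0.71 ± 0.37 has an interval of -0.31 to 1.72 (limma adjusted p = 0.57), and it was 1.16 without KO replicate 2 and 0.25 without KO replicate 1. Nars, the asparaginyl enzyme, followed the same order of arrays, with 10.19 and 9.81 in KO against 9.51, 9.40 and 9.998 in controls (difference 0.36 ± 0.24). In Lars, the leucyl enzyme, which also senses leucine for the mTORC1 kinase, KO arrays read 9.36 and 8.78 and controls 8.55, 8.62 and 8.70. The groups did not overlap there, and the difference was 0.45 ± 0.20 (limma adjusted p = 0.57).

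Other cytosolic genes on the higher side had smaller differences. Aars (0.35, alanine), Yars (0.28, tyrosine) and Tars (0.24, threonine) had a control replicate 3 above KO replicate 2, and in Eprs (0.21) those arrays had the same value. Gars (0.20, glycine) and Mars (0.18, methionine, annotated as Mars1) had both KO arrays above all controls, KO replicate 2 by a narrow margin (9.58 against at most 9.57 in Gars, 8.02 against at most 7.98 in Mars). Qars (0.07, glutamine) and Farsb (0.02) lay near 0. Of the 11 genes from Sars to Mars in this order of differences, all had their highest level in KO replicate 1.

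Wars and Hars were the cytosolic genes lower in KO hearts with separated groups. Wars, which charges tryptophan and is known in mammals as a gene induced by interferon gamma, had levels of 7.76 and 8.05 in KO against 8.18, 8.28 and 8.23 in controls. The KO values were below each control value, and the difference was -0.32 ± 0.10 (unadjusted p = 0.0317, limma adjusted p = 0.521). Hars, the histidyl enzyme, was at 8.58 and 8.50 in KO and 8.72, 8.72 and 8.90 in control hearts. This gap was smaller, -0.24 ± 0.08 (unadjusted p = 0.0411, limma adjusted p = 0.547). Hars was not under an unadjusted p of 0.05 with array weights, after quantile normalization again or with each array centred on its median. Wars was not under an unadjusted p of 0.05 without any 1 of the controls (differences of -0.35, -0.30 and -0.32), and Hars was under it only without control replicate 3 (-0.18) when single arrays were left out. Vars, the valyl enzyme, split the KO arrays, with 6.53 in replicate 1 and 7.23 in replicate 2 against 7.02, 7.06 and 7.12 in controls. One KO array was thus the lowest and the other the highest of the 5, and its difference of -0.19 became 0.16 without KO replicate 1. Without KO replicate 2 it was -0.54, with a limma adjusted p of 0.0463, while over all alternatives that p ran from 0.0463 to 0.84. Farsa (-0.17), Kars (-0.08) and Rars (-0.03) overlapped between groups.

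**Figure D2:**
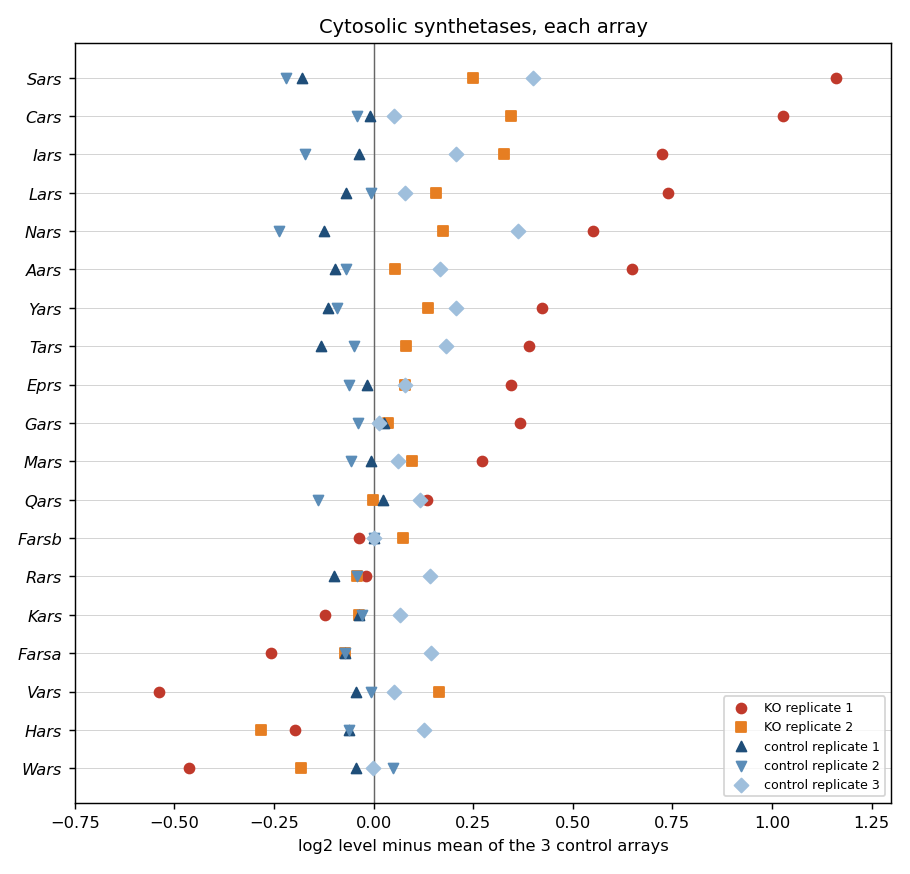
Log2 level of each of the 19 cytosolic synthetases on each array, minus the mean of the 3 control arrays, ordered by the KO minus control difference. KO replicate 1 (red circles) is farthest right for the upper 11 genes. Among those 11, control replicate 3 (light diamonds) lies right of KO replicate 2 in Sars, Nars, Aars, Yars and Tars. Below them it does so in Qars, Rars, Kars, Farsa, Hars and Wars.

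The cytosolic set was divided by whether a gene is known from other work in mammalian cells as induced through ATF4. That list came from general knowledge and was drawn up with earlier results of these data known, so it is no independent evidence. Of its 13 genes, 11 were higher in KO, with a median of 0.28; Vars and Wars were the exceptions. Of the 6 measured genes outside it (Farsa, Farsb, Hars, Kars, Qars and Rars), 4 were lower and 2 higher (median -0.06). Separated groups with higher KO levels occurred in 5 of the 13 and in 0 of the 6, beside 8.18% of all genes tested, a share at which 0 of 6 is near the background. Median shifts of the 13 were 0.422 and 0.137 in the KO arrays, against -0.0453, -0.0563 and 0.0786 in controls. For the other 6 they were -0.08 and -0.0401 in the KO arrays, within the control range of -0.0524 to 0.121 except for KO replicate 1. All 5 synthetases with the TGATGNAA core in their window belong to the 13, of which 8 had a window. Of the other 6, only 4 had a window and 0 held the core, which is near the background of 2.73% of tested genes. The core belongs to an element that ATF4 binds, so its presence in a list of known ATF4-induced genes is no independent evidence either.

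ATF4 targets outside the family had larger differences. Of 18 listed genes 16 were tested, all 16 had higher means in KO and the median was 0.78; Slc7a11 was dim and Phgdh had no annotated probe set. Of these, 13 were higher at an unadjusted p under 0.05, beside 3.29% of all genes tested, and 0 passed the adjusted threshold in limma. This list too was chosen with earlier results known. Atf4 itself was at 10.71 and 10.74 in KO against 10.43, 10.39 and 10.36 in controls (0.33 ± 0.04). Asns, asparagine synthetase, was at 10.04 and 9.41 in KO against 8.46, 8.36 and 8.91 in controls (1.15 ± 0.28), an order of arrays like that of Sars and Nars except that its groups did not overlap. Chac1, a glutathione-degrading enzyme, had 6.25 and 6.31 in KO against 4.58, 4.77 and 4.85 in controls (1.55 ± 0.10), so its KO arrays were nearly level. The pseudokinase gene Trib3 (1.22 ± 0.20) and the stress factor Ddit3 (1.01 ± 0.38) also had both KO arrays above all controls, Ddit3 with 8.86 and 7.68 against 7.20 to 7.30. The median shift of these targets was 0.855 and 0.586 in the KO arrays and 0.11 in control replicate 3, against -0.0367 and -0.0529 in the other controls.

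Mitochondrial synthetases with the largest negative differences were Sars2, Mars2 and Fars2. Sars2, the mitochondrial seryl enzyme, had levels of 6.42 and 6.76 in KO and 7.12, 6.99 and 6.85 in control hearts, with the KO arrays below all controls. The difference was -0.40 ± 0.14 (unadjusted p = 0.0507, limma adjusted p = 0.57). Mars2, which charges methionine, was at 5.26 and 5.51 in KO and 5.63, 5.67 and 5.80 in control hearts. Its groups stood apart by -0.32 ± 0.10 (unadjusted p = 0.0383, limma adjusted p = 0.543). Fars2, the single-chain phenylalanyl enzyme, read 7.10 and 6.81 in KO and 7.28, 7.23 and 7.18 in controls (-0.27 ± 0.10). In Sars2 and Mars2 KO replicate 1 was the lowest array, and in Fars2 KO replicate 2 was.

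Vars2 and Ears2 had smaller and more even differences. Vars2, the mitochondrial valyl enzyme, was at 5.32 and 5.38 in KO and 5.57, 5.49 and 5.57 in control hearts. Its KO arrays differed by less than the controls did, and the difference of -0.19 ± 0.05 had the smallest p of the family (unadjusted p = 0.0159, limma adjusted p = 0.453). Ears2, the glutamyl enzyme, had 6.79 and 6.81 in KO against 6.90, 6.99 and 7.02 in control hearts (-0.17 ± 0.05, unadjusted p = 0.0292). Hars2 (-0.11) and Cars2 (-0.11) also had both KO arrays below all controls, at an unadjusted p above 0.05. Of the 3 mitochondrial genes under 0.05, none stayed so with array weights. Only Mars2 did with each array centred on its median or with tied genes left out. Mars2 and Vars2 did after quantile normalization again. Only Vars2 stayed so without control replicate 2 and without control replicate 3, and only Ears2 without control replicate 1. Vars2 and Mars2 stayed so without KO replicate 2. None of the 3 did without KO replicate 1, where the differences were -0.16 in Vars2, -0.16 in Ears2 and -0.19 in Mars2.

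In the other mitochondrial genes the groups overlapped. Pars2, the prolyl enzyme and the dimmest of the set on these arrays, read 4.88 and 4.82 in KO and 4.88, 4.97 and 4.98 in control hearts. Rars2, the arginyl enzyme and the brightest, read 8.01 and 7.98 in KO and 7.98 on all 3 controls. Differences of Lars2, Aars2, Tars2, Yars2 and Iars2 were between -0.05 and -0.02. Among these, human mutations of AARS2 cause an infantile cardiomyopathy and those of YARS2 a myopathy with anaemia. Wars2 was 0.09 higher with overlapping groups. Nars2, the asparaginyl enzyme, was the mitochondrial gene with the largest positive difference. It was at 6.44 and 6.11 in KO and 5.97, 5.88 and 6.11 in control hearts, KO replicate 2 and control replicate 3 having the same value (0.29 ± 0.13, limma adjusted p = 0.57).

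**Figure D3:**
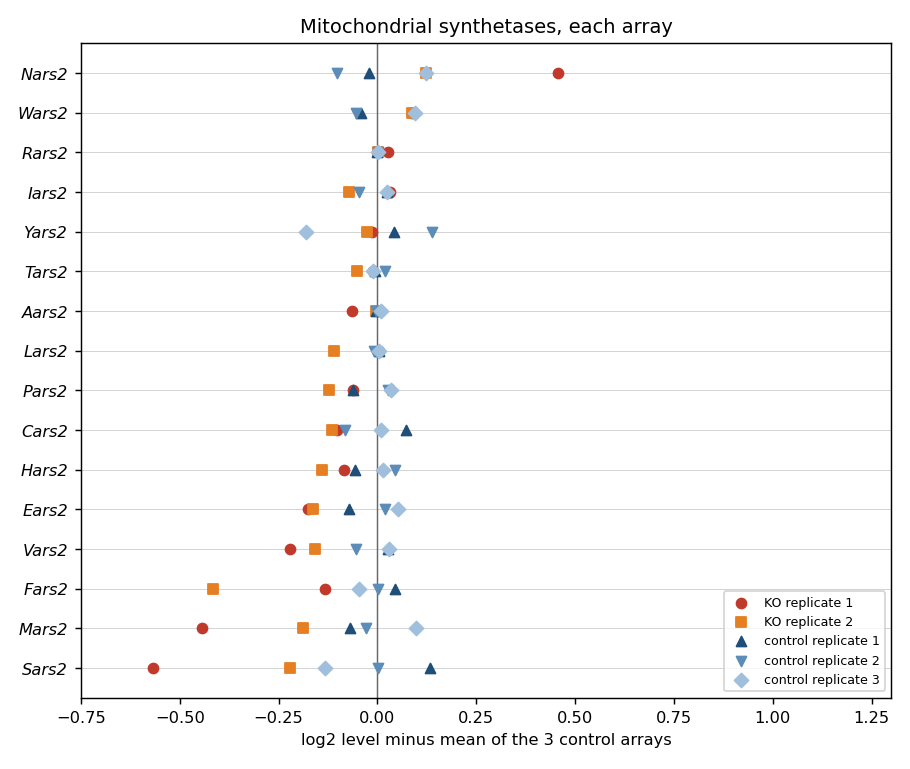
Log2 level of each of the 16 mitochondrial synthetases on each array, minus the mean of the 3 control arrays, on the same horizontal scale as the cytosolic plot. Both KO arrays lie left of all controls in the 7 genes Cars2, Hars2, Ears2, Vars2, Fars2, Mars2 and Sars2.

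For 16 amino acids a cytosolic and a mitochondrial gene could be set side by side, in 17 pairs because phenylalanine has 2 cytosolic subunits and Eprs serves glutamate and proline. In 14 of the 17 the difference of the cytosolic gene was above that of the mitochondrial one, by a median of 0.30. The widest gap was for serine, 0.71 in Sars against -0.40 in Sars2, followed by cysteine (0.69 against -0.11) and isoleucine (0.52 against -0.02). Within arrays the gap of the pair was larger in both KO arrays than in all controls in 7 pairs, those for cysteine, isoleucine, leucine, methionine, glutamate and proline and that of Farsb with Fars2. Gaps were narrow for valine (-0.19 in both Vars and Vars2), arginine (-0.03 in Rars against 0.01 in Rars2) and asparagine (0.36 in Nars against 0.29 in Nars2), whose genes were both higher. For tryptophan the order was the opposite, with -0.32 in Wars against 0.09 in Wars2, and for histidine both genes were lower (-0.24 and -0.11). Only these last 2 pairs had a gap that was smaller in both KO arrays than in all controls. Pairs are not replicates, and no test was made over them. No share over other pairs of genes was computed, so the counts of separated gaps have no background beside them. Eprs stands in 2 of the 7 pairs with a larger gap.

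**Figure D4:**
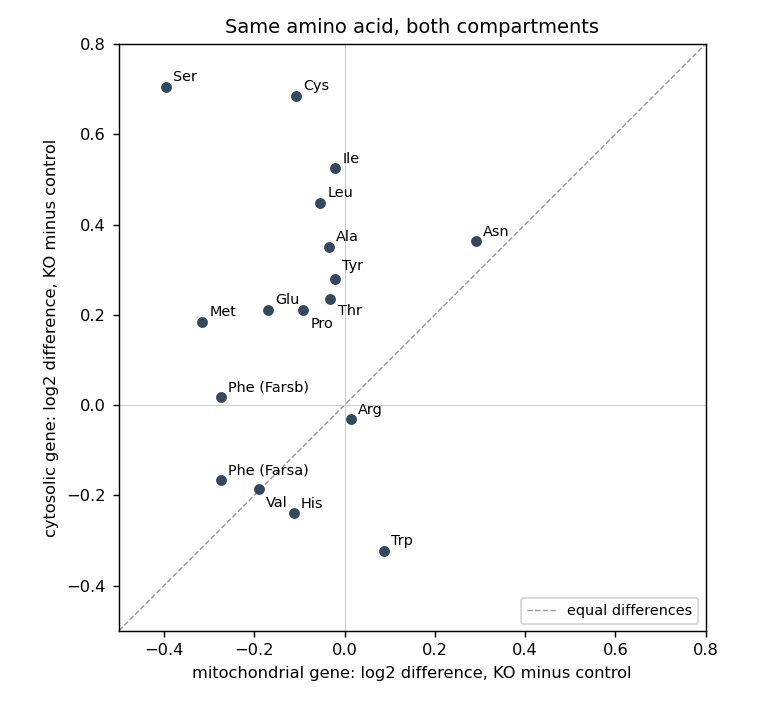
KO minus control log2 difference of the cytosolic gene (vertical axis) against that of the mitochondrial gene (horizontal axis) for the same amino acid, 17 pairs. Points above the dashed line of equal differences are the 14 pairs with the higher cytosolic difference; serine lies farthest from the line and tryptophan farthest below it.

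Cytosolic synthetases fall into those held in the multisynthetase complex and those outside it. Of the 7 measured complex enzymes 5 were higher in KO, with a median of 0.18. Of the 12 outside it 8 were higher, with a median of 0.22, beside 43.7% of all genes tested. The median shift of the complex enzymes was 0.273 in KO replicate 1, and 0.0786 in both KO replicate 2 and control replicate 3. Outside the complex it was 0.379 in KO replicate 1 and 0.0778 in KO replicate 2, below the 0.135 of control replicate 3. The scaffold proteins of the complex did not follow as a group, 1 of 3 being higher. Eef1e1, also called AIMP3, was at 8.51 and 8.55 in KO and 8.76, 8.82 and 8.89 in control hearts (-0.29 ± 0.05, unadjusted p = 0.00476, limma adjusted p = 0.355), with separated groups. Aimp1 differed by 0.16 and Aimp2 by -0.04, both with overlap.

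Most genes in 3 other lists of aminoacylation and translation had lower means in KO hearts, beside 54.4% of all genes tested. Of 8 cytosolic elongation and termination factors 6 were lower, with a median of -0.14. Their median shift was -0.304 in KO replicate 1, but -0.00148 in KO replicate 2, within the control range of -0.0715 to 0.0422. The release factor gene Etf1 (-0.16) was under an unadjusted p of 0.05, and the elongation factor gene Eef2 (0.14) was not. Of 20 measured genes of tRNA maturation and export 15 were lower (median -0.09), with the RNase P subunits Pop1 (-0.27) and Pop5 (-0.53) under 0.05, and Elac2 (-0.29) and Tsen15 (-0.19) above it. Of 7 genes for editing and related proteins 6 were lower (median -0.12). Aarsd1, which removes wrongly attached serine from alanine transfer RNA, was at -0.43 and under 0.05, while Tarsl2 (-0.29), Prorsd1 (-0.12) and Dtd2 (-0.12) were not. The genes under 0.05 were thus Etf1, Pop1, Pop5 and Aarsd1, all lower, beside 5.49% of all genes lower and 3.29% higher at that level, and 0 passed the adjusted threshold in limma.

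Mitochondria lack a glutaminyl synthetase of their own and make glutaminyl-tRNA with the GatCAB amidotransferase. Its subunit gene Qrsl1 was at 6.19 and 6.01 in KO and 6.43, 6.41 and 6.66 in control hearts (-0.40 ± 0.11, unadjusted p = 0.0228, limma adjusted p = 0.493). The other subunits Gatb (0.30) and Gatc (-0.15), and the formyltransferase Mtfmt (-0.18), had overlapping groups. Of 9 mitochondrial translation factors 5 were lower and 4 higher, with a median of -0.01. The 3 with the smallest p, Tufm (-0.25), Gfm1 (-0.39) and Tsfm (-0.47), had both KO arrays below all controls, beside 13.1% of all genes tested, and an unadjusted p under 0.05, beside 5.49% lower at that level. Tufm, which brings charged transfer RNA to the mitochondrial ribosome, was at 7.16 and 7.12 in KO against 7.37, 7.36 and 7.43 in controls. The remaining factors, among them Mtrf1 (0.18), overlapped between groups and were not under that level.

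**Figure D5:**
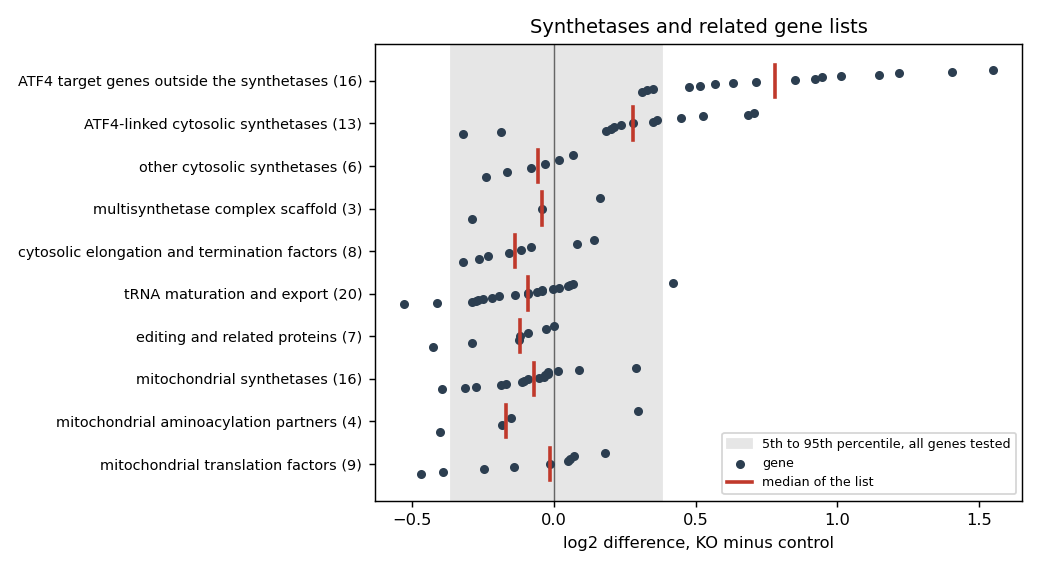
KO minus control log2 difference of each gene (points) in the synthetase classes and related lists, with the number of genes in brackets, the list median (red bar) and the 5th to 95th percentile of all 13967 genes tested (grey, -0.37 to 0.38). Of the ATF4-linked synthetases 11 of 13 lie right of 0, while the mitochondrial synthetases have a median of -0.07.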

How the data were processed

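Expression was measured on 5 arrays. The authors deposited log2 RMA values in 1 table of 24479 probe sets, made with Affymetrix Expression Console and RMA per the submitters' processing notes; their versions and settings are not given in those notes, and scanner values were not used. RMA brings the arrays to nearly the same distribution (array medians 5.07 to 5.11, upper quartiles 6.87 to 6.92), so a shift shared by most genes would not be seen. The number of arrays limits the precision. Symbols came from the platform annotation (23281 sets with 1 symbol, 0 with several and 1198 with none), updated by Entrez number through a RefSeq table of GRCm38.p6 (23156 matched). The brightest set of a gene was kept and genes with a mean under the 40th percentile were left out, which left 13967. KO and control were compared by limma 3.58.1 in R 4.3.3 (lmFit, eBayes, two-sided), adjusted over all genes, with a threshold of 0.05; the steps were tested on simulated data. The 10 possible splits of the arrays allow no permutation p under 0.1. Identical values on 2 or more arrays occurred in 54.8% of the tested genes. Array values are given for members under an unadjusted p of 0.05, the 4 largest differences of each class and the brightest and dimmest member; the other lists name up to 4 genes with the smallest p. Promoter windows came from a RefSeq table of the same build. Alternatives changed the filter, the prior, the array weights, the normalization, the probe set rule, ties, the threshold and the arrays used. Members and lists were chosen with earlier results of these data known.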

Additional observations from a re-analysis of the deposited data

How the results depend on the processing

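Of 217 alternative values for the 16 synthetases named by the rule, over all alternatives run, 1 changed sign: Vars was 0.16 without KO replicate 1. Another 2 passed the adjusted threshold, both without KO replicate 2 (Cars at 1.03 and Vars at -0.54). Changes of the filter, the prior, the probe set rule, ties or the threshold left each difference as it was by construction. Those values were no test of sign. Members near 0 and not named by the rule did change sign. Examples were Lars2 (0.004), Iars2 (0.03) and Farsb (-0.04) without KO replicate 2, and Rars (0.04) without control replicate 3. Leaving out each array in turn, the cytosolic median ran from 0.0786 to 0.344, the mitochondrial median from -0.112 to -0.0617 and their gap from 0.191 to 0.407. In those fits 0 to 9 cytosolic and 2 to 5 mitochondrial genes were under an unadjusted p of 0.05, and 0 to 2 synthetases passed the adjusted threshold. Over all genes 772 to 3818 were under the unadjusted threshold and 0 to 983 passed the adjusted one, the largest counts coming without KO replicate 2. Counts of direction, chosen after seeing the data, were 12 to 14 cytosolic genes higher and 11 to 13 mitochondrial genes lower. Over all genes, 43% to 43.4% were higher and 53.1% to 53.6% lower in those fits.

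The mitochondrial median was -0.0438 with a 60th percentile filter, which tested 12 of its genes, -0.0568 after quantile normalization again, and -0.0532 with each array centred on its median. Without genes that have tied values, which left 14 cytosolic and 8 mitochondrial genes, it was -0.179, the gap was 0.436 and 7 genes passed the adjusted threshold. Array weights gave 783 genes and 1 mitochondrial synthetase under an unadjusted 0.05, and a threshold of 0.1 gave 2150 genes and 7. The cause was not tested for the array weights, the normalizations or the ties. No filter, a robust prior with an intensity trend, the mean of probe sets, and leaving out Gars and Kars kept all these results within 1.5 times of a count or 1 SD of a median. No paired analysis was possible because the sample numbers in the labels are not shared between the groups. With 2 against 3 arrays, the median SE of a synthetase was 0.10, and differences near that size could not be detected. Far larger ones did not pass the adjusted threshold either in the fit of all 5 arrays, such as 1.55 in Chac1 and 0.69 in Cars.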

Other observations

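Both structural classes of synthetase were present in each compartment. Class I cytosolic genes, whose catalytic fold binds ATP in a Rossmann-like domain, were higher in KO in 6 of 9 (median 0.18). Class II cytosolic genes were higher in 6 of 9 (median 0.20). Eprs (0.21), which holds an enzyme of each class, was counted in neither. In mitochondria 7 of 9 class I genes were lower in KO (median -0.05), as were 6 of 7 class II genes (median -0.09). Of all genes tested, 43.7% were higher and 54.4% lower.

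Hars and Hars2 are neighbours on chromosome 18 with 0 protein-coding genes between them in the RefSeq table, and each had both KO arrays below all controls (-0.24 and -0.11). Iars2 and Eprs lie on chromosome 1 with 1 protein-coding gene between them and had differences of -0.02 and 0.21. Xpot, the exportin that carries transfer RNA out of the nucleus, was named after its values were seen. It had the largest positive difference of the tRNA maturation and export list, 0.42 at an unadjusted p of 0.12. Among 16 measured ATF4 targets with a promoter window, 5 held the TGATGNAA core (31.2%). The share was 4.51% of all genes with a window and 2.73% of those tested on the arrays. These targets were listed as known ATF4 targets, so their share is no independent evidence.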
